A study of Mus musculus with 6 samples.

Results

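The complement genes made in the vessel wall that are described here are 9 in number, *C3*, *C4b*, *C2*, *Cfb*, *C1ra*, *C1s1*, *Serping1*, *C7* and *Cd55*. They were taken by gene symbol, with C1q left out, from a table of 55426 genes, and all 9 were among the 15775 genes whose mean reached 0.5 TPM (a level per transcript length that sums alike in all libraries). Abdominal aortas of 3 control mice and 3 mice with a knockout of *Prdm16* in vascular smooth muscle cells (VSMCs), hereafter *Prdm16*SMKO, were sequenced, all male and of the C57BL/6J strain, as 1 library per sample. *Prdm16*SMKO mice carried 2 floxed *Prdm16* alleles and *Myh11*-CreERT2, a Cre recombinase that is made in smooth muscle from the Y chromosome and needs tamoxifen to act, and the study names *Myh11*-CreERT2 mice as the wild-type controls. The methods give tamoxifen at 75 mg/kg/day for 5 days, at 8 to 10 weeks of age, for male mice without naming a group, and do not say how long after it the RNA was taken. No aneurysm had been induced in the sequenced mice. Deletion is limited to cells that make *Myh11*, while the RNA came from the whole vessel.

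Complement is a cascade of plasma and cell surface proteins that marks targets for removal and can pierce membranes. The classical pathway starts when the proteases C1r and C1s, bound to C1q, cleave C4 and C2 to form an enzyme that splits C3; in the alternative pathway factor B takes the part of C2. The split of C3 leads on to C7 and the other late components, and regulators such as C1 inhibitor and CD55 hold the steps in check. The liver makes most plasma complement, and fibroblasts, endothelial cells, macrophages and smooth muscle cells of an artery can make components locally.

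The 5 genes of the set matched in the RefSeq promoter table used here are *C3*, *C1ra*, *C1s1*, *C7* and *Cd55*. Shown are the 250 bases before the start of *C3* and *Cd55*, which had the highest fitted differences among these 5, and of *C7*, which had the lowest (build GRCm38.p6, RefSeq, all on the minus strand, 5′ to 3′). Capitals mark matches on either strand to 1 of 4 motifs, of which GAS (TTCNNNGAA) and C/EBP (TTGCNNAA) are written with N for any base, ISRE is a pair of GAAA with any 2 bases between them, and the fourth is the NF-κB consensus.
C3: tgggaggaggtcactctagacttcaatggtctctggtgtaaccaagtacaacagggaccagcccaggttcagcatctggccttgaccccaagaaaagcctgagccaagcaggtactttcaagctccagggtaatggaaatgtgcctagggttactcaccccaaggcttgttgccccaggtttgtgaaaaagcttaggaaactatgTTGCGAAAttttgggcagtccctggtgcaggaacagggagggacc
Cd55: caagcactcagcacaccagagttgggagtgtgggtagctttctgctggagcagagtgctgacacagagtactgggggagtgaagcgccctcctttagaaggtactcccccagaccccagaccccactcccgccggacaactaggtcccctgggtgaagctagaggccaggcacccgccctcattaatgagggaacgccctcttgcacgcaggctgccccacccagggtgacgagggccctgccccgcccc
C7: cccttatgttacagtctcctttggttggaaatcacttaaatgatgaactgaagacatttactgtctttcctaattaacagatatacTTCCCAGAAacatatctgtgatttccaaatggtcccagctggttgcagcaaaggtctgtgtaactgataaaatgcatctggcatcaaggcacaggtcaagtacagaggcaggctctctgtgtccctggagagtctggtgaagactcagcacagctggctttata
The *C3* window, chr17:57228137-57228386, held 1 C/EBP match, which begins 45 bases before the start. The *C7* window, chr15:5063774-5064023, held 1 GAS match, which begins 164 bases before the start, and the *Cd55* window, chr1:130462745-130462994, held no match to these letters. Among 32851 promoter windows of the same length, 9.56% held a C/EBP match, 7.02% a GAS match, 2.98% an ISRE match and 7.25% an NF-κB match. *C1s1* has 2 windows, of which 1 held a C/EBP match, and the *C1ra* window held none of the motifs. The *Cd55* window lies within the antisense gene *Gm16083*, which was listed at 0 TPM in the control libraries and at 0.04 TPM in each *Prdm16*SMKO library. *Gm16083* also overlaps 169 bases of *Cd55* itself, and the strand setting is not known. Values are rounded to 2 decimals, so 0.04 TPM is close to the lowest that can be listed.

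The 4 members *C4b*, *Cfb*, *C2* and *C3* lie on chromosome 17 of GRCm38 (GENCODE M21). *C4b* (34728380 to 34743882), *Cfb* (34856374 to 34862518) and *C2* (34862604 to 34898265) lie within 169.9 kb of each other in the MHC class III region, and 85 bases separate *Cfb* from *C2*. *C1ra* (124512405 to 124523443) and *C1s1* (124530345 to 124542359) are neighbours on chromosome 6. Several members share sequence with other genes, which bears on how reads were assigned. Of all 151-base stretches, the read length, in the transcripts of *Cfb* and *C2*, 61.8% and 32.7% also occur in *Gm20547*, a gene model that overlaps both. *Gm20547* was listed at 0 TPM in 5 of the 6 libraries and at 0.39 TPM in *Prdm16*SMKO replicate 3. *C1ra* shares 26.1% of its stretches with *C1rb*, *C4b* 7.40% with *C4a*, *C1s1* 2.43% with *C1s2* and *Cd55* 2.06% with *Cd55b*, whereas *C3*, *Serping1* and *C7* share 0. The 4 partner genes were at low levels, with *C4a* between 0.23 and 1.20 TPM, *C1rb* at 0.04 TPM in 1 control library and 0 in the others, *C1s2* at no more than 0.11 TPM, and *Cd55b* listed at 0 throughout.

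The libraries differed in the sums of their cell type markers. Summed VSMC markers ranged from 14917 to 25276 TPM in control and from 11513 to 17648 TPM in *Prdm16*SMKO libraries, and the defining genes *Myh11*, *Acta2* and *Tagln* were abundant throughout. *Prdm16*SMKO replicate 2 had the highest sums of the 10 fibroblast markers (2913 TPM), the 8 endothelial markers (507 TPM) and the 10 macrophage markers (238 TPM), and *Prdm16*SMKO replicate 1 had the lowest fibroblast sum (1604 TPM). *Prdm16*SMKO replicate 3 had the highest sum of the 8 adipocyte markers, at 2664 TPM against 499.6 to 1058 TPM in the other libraries. *Alb*, the defining hepatocyte gene, was at no more than 1.74 TPM. The 8 hepatocyte markers summed to 23.3 to 41.5 TPM in control and 30.5 to 63.4 TPM in *Prdm16*SMKO libraries. Most of these sums came from *Trf*, at 20.8 to 36.0 TPM in control and 26.9 to 61.6 TPM in *Prdm16*SMKO libraries. *Prdm16* itself was at 30.8 to 36.8 TPM in control and 14.8 to 27.7 TPM in *Prdm16*SMKO libraries (limma, adjusted p = 0.376). Every *Prdm16*SMKO library was thus below every control library, as in 5.76% of all genes tested. The log2 fold change of *Prdm16* was −0.70 (95% interval −1.22 to −0.19). In such bulk RNA, fewer cells of a type and less RNA per cell cannot be told apart.

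In control aortas *Serping1*, which encodes C1 inhibitor, was the highest of the 9 genes at 190.5 ± 11.3 TPM (SD, n = 3). It was followed by *C7*, at 79.7 ± 12.9 TPM (SD, n = 3), a late component that binds the growing attack complex to a membrane. *C1s1* (42.0 ± 3.72 TPM), *C3* (32.8 ± 9.35 TPM) and *C1ra* (30.1 ± 0.972 TPM) formed the next step (SD, n = 3 each), and the range of *C3* overlapped that of each of the other two. *C4b* (12.6 ± 3.37 TPM), *Cfb* (11.8 ± 1.03 TPM) and *C2* (9.10 ± 2.04 TPM) came next (SD, n = 3 each), and neighbours in this order overlapped. *Cd55*, at 3.21 ± 0.250 TPM (SD, n = 3), lay below all the others in every control library. By mean TPM over all libraries *Serping1* stood above 97.5% of the genes tested and *Cd55* above 36.3%.

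**Figure D1:**
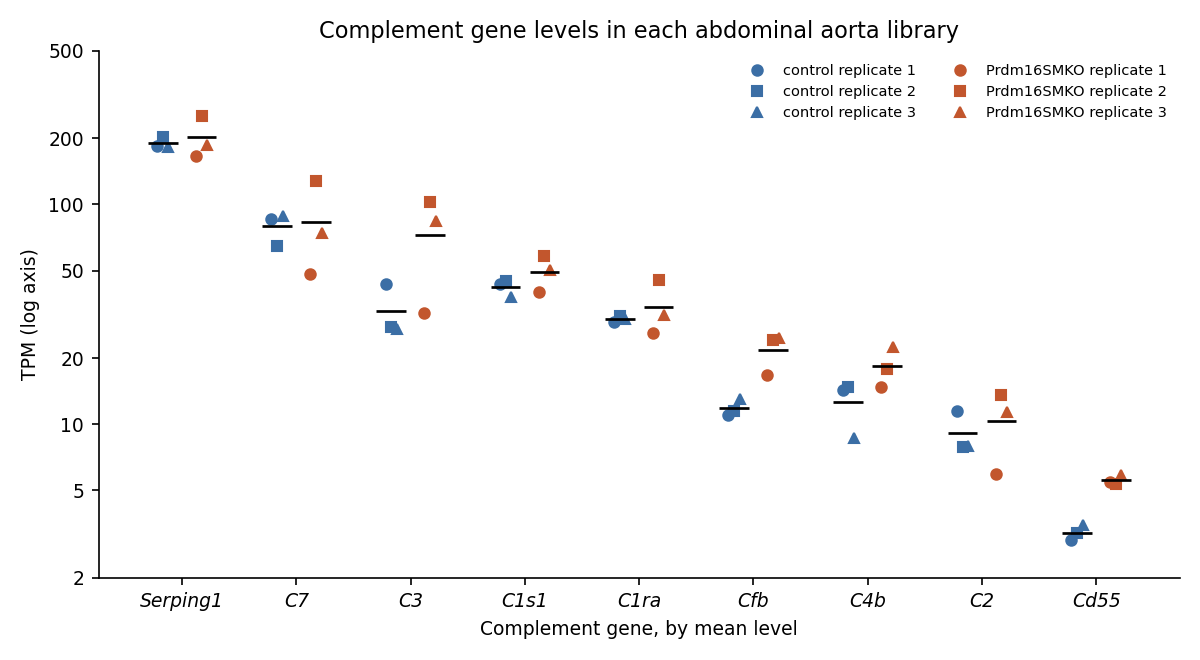
TPM of the 9 complement genes on a log axis, with 1 symbol per library (circles, squares and triangles are replicates 1, 2 and 3; blue is control, orange is *Prdm16*SMKO) and a black line at each group's mean. *Cfb* and *Cd55* are separated by group, whereas for *Serping1*, *C7* and *C1ra* the *Prdm16*SMKO libraries lie on both sides of the control values.

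The study compared aortas of *Prdm16*SMKO and control mice to see which genes differ with PRDM16 in smooth muscle. Values of 3 libraries are given in the order of replicates 1, 2 and 3. In none of the 9 genes was limma's p, adjusted over all genes tested by Benjamini-Hochberg, under 0.05, against 0.355% of all genes tested (0.184% in the higher and 0.171% in the lower direction). The unadjusted p was under 0.05 in 3 members, *Cfb*, *Cd55* and *C3*, all higher in *Prdm16*SMKO mice, and 8.74% of all genes tested met that threshold in either direction, with 4.88% higher. In *C4b*, *Cfb* and *Cd55* every *Prdm16*SMKO library lay above every control library, a pattern shown by 7.02% of all genes tested, and no member had the opposite pattern, shown by 5.76% (12.8% in either direction). The fitted log2 fold change was above 0 in 8 of the 9 genes, with a median of 0.22 beside 0.02 for all genes tested. Without *Prdm16*SMKO replicate 2 it was above 0 in 5 of the 9, with a median of 0.09, and without *Prdm16*SMKO replicate 1 the median was 0.45. In this design the smallest p of the exact permutation test (two-sided) is 0.1.

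**Figure D2:**
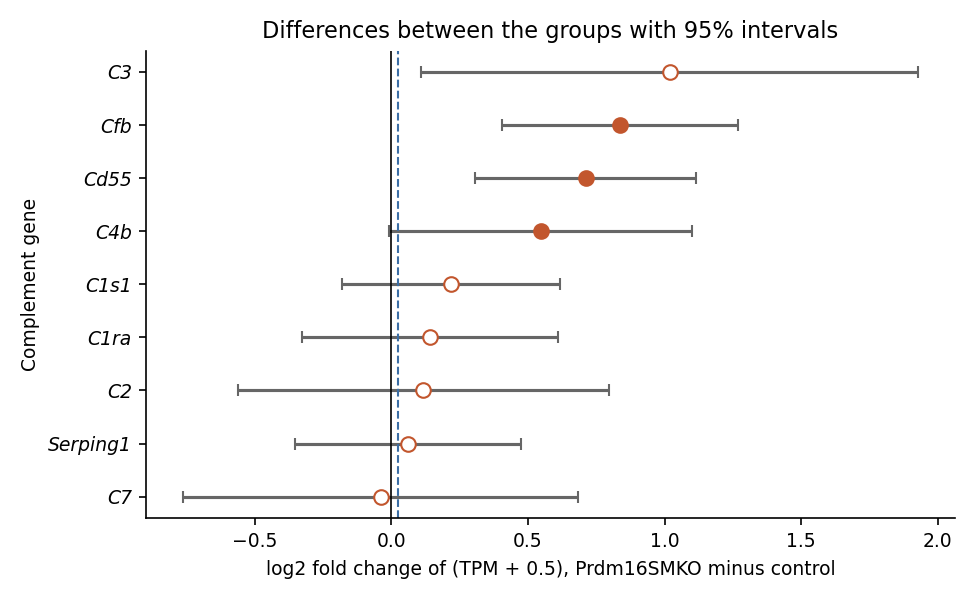
Log2 fold change of TPM + 0.5 for each complement gene (points) with its 95% interval from limma (bars); filled points are genes whose groups do not overlap, the black line is 0 and the dashed blue line is the median of all genes tested. The intervals of *C3*, *Cfb* and *Cd55* lie above 0, and those of the other 6 genes include 0.

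Among the genes of the alternative pathway, *Cfb*, which encodes factor B, the protease of its C3 convertase, read 11.02, 11.48 and 12.99 TPM in the control libraries, against 16.69, 24.05 and 24.57 TPM in those of *Prdm16*SMKO mice. All *Prdm16*SMKO libraries were above all control libraries, replicate 1 by the least (exact permutation test, two-sided p = 0.1). The log2 fold change was 0.84 with a standard error of 0.19, an estimated 1.78-fold difference in TPM + 0.5 (limma, adjusted p = 0.153). It stayed between 0.74 and 1.01 when each library was left out in turn. With limma's array weights, which give libraries with large residuals less weight, *Cfb* was past the threshold (adjusted p = 0.0158, over a range of 0.0158 to 0.488 among the alternatives). That setting called 494 of 15775 genes, against 56 with equal weights.

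*C3*, which encodes the protein on which all pathways converge, read 43.55, 27.70 and 27.02 TPM in the control libraries, against 32.19, 102.15 and 84.21 TPM in those of *Prdm16*SMKO mice. Thus 2 *Prdm16*SMKO libraries were well above all controls, while the third lay inside the control range. The log2 fold change was 1.02, the largest of the 9, but with a standard error of 0.40 (limma, adjusted p = 0.502; exact permutation test, two-sided p = 0.2). The call depended on 1 library. Without *Prdm16*SMKO replicate 1 the log2 fold change was 1.52 and the adjusted p 0.0388 (limma, Benjamini-Hochberg), over a range of 0.0388 to 0.758 among the alternatives, and without *Prdm16*SMKO replicate 2 the difference was 0.70. The 2 libraries with high *C3* also had the highest macrophage sums (C1q genes included), 238 and 182 TPM against 82.3 to 129.98 TPM in the other 4. Their endothelial sums were the highest too, 507 and 331 TPM against 248 to 324 TPM. *Prdm16*SMKO replicate 2 had the highest fibroblast sum and replicate 3 the highest adipocyte sum. The part of these in the *C3* difference was not tested.

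As with *Cfb* and *C3*, none of the classical pathway genes had a limma p under 0.05 after Benjamini-Hochberg adjustment. *C1ra*, which encodes the protease that activates C1s, read 29.19, 31.13 and 30.04 TPM in the control libraries, against 26.00, 45.12 and 31.30 TPM in those of *Prdm16*SMKO mice. *C1s1*, which encodes the protease that cleaves C4 and C2, read 43.58, 44.61 and 37.72 TPM in the control libraries, against 39.88, 57.99 and 50.18 TPM in those of *Prdm16*SMKO mice. In both genes *Prdm16*SMKO replicate 2 was the highest library and replicate 1 lay below at least 2 controls, so that the groups overlapped. Their log2 fold changes were 0.14 (95% interval −0.33 to 0.61; limma, adjusted p = 0.945) and 0.22 (95% interval −0.18 to 0.62; adjusted p = 0.857). Both intervals leave room for a difference of either sign, and the sign of *C1ra* turned without *Prdm16*SMKO replicate 2 (−0.076).

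*C2*, whose product joins C4b in the classical C3 convertase, read 11.45, 7.86 and 7.99 TPM in the control libraries, against 5.96, 13.59 and 11.37 TPM in those of *Prdm16*SMKO mice. The lowest and the highest of the 6 values were both from *Prdm16*SMKO mice, and the log2 fold change of 0.12 (standard error 0.30; limma, adjusted p = 0.976) was −0.11 without *Prdm16*SMKO replicate 2 and −0.17 with array weights. *C4b*, which encodes mouse C4, read 14.34, 14.69 and 8.68 TPM in the control libraries, against 14.75, 17.86 and 22.51 TPM in those of *Prdm16*SMKO mice. The groups touched without overlapping, with 14.75 TPM as the lowest *Prdm16*SMKO and 14.69 TPM as the highest control value. The log2 fold change was 0.55 with a standard error of 0.24 (limma, adjusted p = 0.585), and it was 0.31 without control replicate 3, the lowest library. Under each of the 3 alternative scalings the *C4b* values of the groups overlapped, whereas those of *Cfb* and *Cd55* did not.

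*C7* and the inhibitor *Serping1* showed no common shift of the *Prdm16*SMKO libraries. *C7* read 85.48, 64.95 and 88.65 TPM in the control libraries, against 48.11, 127.45 and 73.81 TPM in those of *Prdm16*SMKO mice. Its log2 fold change was −0.04 (95% interval −0.76 to 0.68; limma, adjusted p = 0.994), and its coefficient of variation was 48.7% in *Prdm16*SMKO and 16.1% in control mice. *Serping1* read 184.70, 203.50 and 183.34 TPM in the control libraries, against 165.18, 253.63 and 186.98 TPM in those of *Prdm16*SMKO mice. *Prdm16*SMKO mice thus gave its lowest and its highest value, and the log2 fold change was 0.06 (95% interval −0.35 to 0.48; limma, adjusted p = 0.982).

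*Cd55*, which encodes the membrane regulator that speeds the decay of C3 convertases, read 2.97, 3.20 and 3.47 TPM in the control libraries, against 5.46, 5.36 and 5.90 TPM in those of *Prdm16*SMKO mice. All *Prdm16*SMKO values were above all control values, and the gap between the groups was wider than either group's range. Its coefficient of variation among *Prdm16*SMKO mice, 5.15%, was the lowest of the 9 genes, and that among controls was 7.79%. The log2 fold change was 0.71 with a standard error of 0.18, an estimated 1.64-fold difference (limma, adjusted p = 0.212; exact permutation test, two-sided p = 0.1). Leaving out each library in turn kept it between 0.66 and 0.76. Array weights, under which 494 of 15775 genes were called, took it past the threshold (limma, adjusted p = 0.0215, over a range of 0.0215 to 0.605 among the alternatives).

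The members differed in which libraries were high. *C3*, *C2*, *C1ra*, *C1s1*, *Serping1* and *C7* were highest in *Prdm16*SMKO replicate 2, and *C4b*, *Cfb* and *Cd55* in replicate 3. *C2*, *C1ra*, *Serping1* and *C7* were lowest in *Prdm16*SMKO replicate 1. The SD was larger in *Prdm16*SMKO than in control mice for all 9 genes, and the coefficient of variation for 7, with *C4b* (21.3% against 26.8%) and *Cd55* (5.15% against 7.79%) the other way. *Prdm16*SMKO replicate 2 was also the library with the highest fibroblast, endothelial and macrophage sums, and *Prdm16*SMKO replicate 1 that with the lowest fibroblast sum, and the part of these in the levels of *C1ra*, *C1s1*, *C2*, *Serping1* and *C7* was not tested. *Cd55* did not take this order, since *Prdm16*SMKO replicates 1 and 2 had 5.46 and 5.36 TPM of it.

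**Figure D3:**
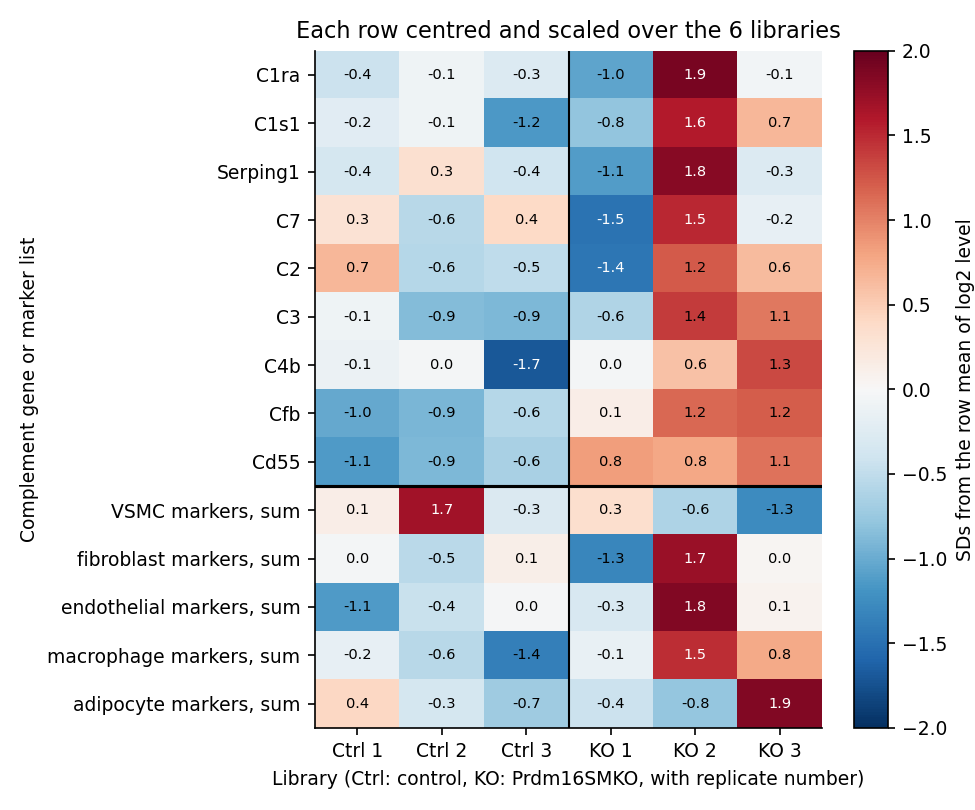
Each row is a complement gene (above the black line, log2 of TPM + 0.5) or the log2 of a summed cell type marker list (below it), centred and scaled over the 6 libraries, and each cell gives the number of SDs from the row mean, from blue (low) to red (high). *C1ra*, *Serping1*, *C7* and the fibroblast markers are highest in *Prdm16*SMKO replicate 2 and lowest in *Prdm16*SMKO replicate 1, whereas *Cd55* and *Cfb* are above their row mean in each of the 3 *Prdm16*SMKO libraries.

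Ratios between members within a library were computed after the values had been seen. They compare genes without the scaling of the library, though reads of *Cfb* and *C2* could still be shared with *Gm20547*, and those of *C1ra* and *C1s1* with a paralog. The ratio of *Cfb* to *C2*, adjacent genes whose proteins take the same part in the 2 pathways, was 0.962, 1.46 and 1.63 in the control libraries, against 2.80, 1.77 and 2.16 in those of *Prdm16*SMKO mice. All *Prdm16*SMKO ratios were above all control ratios, with a difference of 0.74 on the log2 scale (exact permutation test, two-sided p = 0.1). *Cfb* alone also separated the groups and *C2* did not, so this ratio is not independent of the *Cfb* result. The ratio of *C1s1* to *C1ra*, partners in 1 complex, was 1.39 ± 0.123 in control and 1.47 ± 0.167 in *Prdm16*SMKO mice (SD, n = 3 each; exact permutation test, two-sided p = 0.5) and ran only from 1.26 to 1.60 over the 6 libraries. *C3* relative to *Cfb* ran from 1.93 to 4.25 with overlapping groups (exact permutation test, two-sided p = 0.9). Also computed was *Cd55* to *Serping1*, with all *Prdm16*SMKO ratios above all control ratios (exact permutation test, two-sided p = 0.1), as *Cd55* alone was. The ratios of *C3* to *C1s1* and of *C7* to *Serping1* overlapped between the groups (exact permutation test, two-sided p = 0.2 and 0.7).

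**Figure D4:**
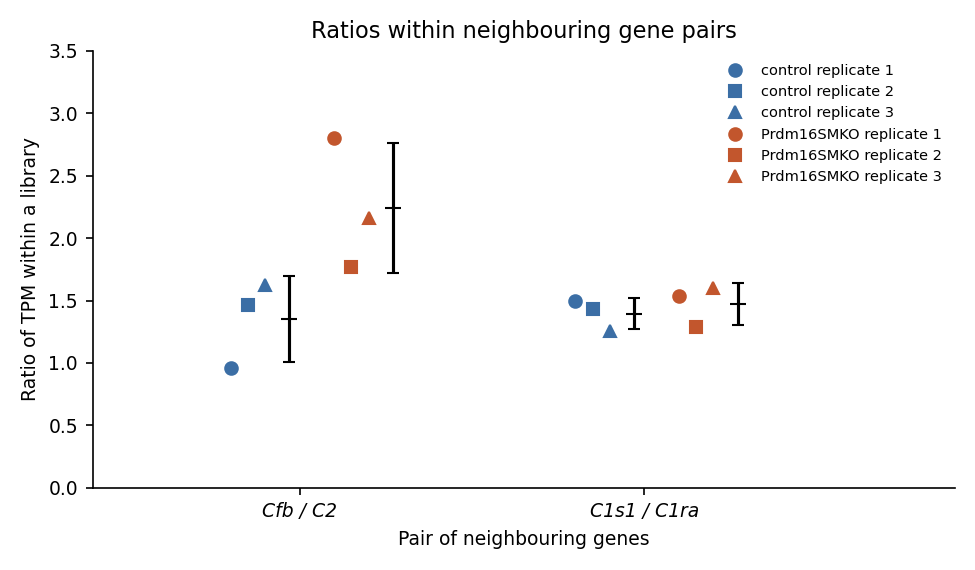
Ratio of TPM within each library for 2 pairs of neighbouring complement genes (blue control, orange *Prdm16*SMKO; symbols are replicates), with the mean and SD of each group in black. The *Cfb* to *C2* ratio is at least 1.77 in every *Prdm16*SMKO library and at most 1.63 in every control library, and the *C1s1* to *C1ra* ratios of the 2 groups overlap.

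Neighbours of the members on chromosomes 17 and 6 were looked at in the same fit. Of 23 tested neighbours, 11 had a log2 fold change above 0 and 12 below, with a median of −0.01, and none had a limma p under 0.05 after Benjamini-Hochberg adjustment, while 5 had an unadjusted p under 0.05, 1 higher and 4 lower (8.74% of all genes tested in either direction). *Nelfe*, *Skiv2l*, *Dxo* and *Stk19*, which lie between *C4b* and *Cfb*, had log2 fold changes of 0.26, −0.01, 0.25 and 0.08 with overlapping groups. *Hspa1a* and *Hspa1b*, near-identical heat shock genes farther along the same region, had log2 fold changes of −1.54 and −1.45 (limma, adjusted p = 0.0648 and 0.0982). Near *C1ra* and *C1s1*, *Lpcat3* and *Emg1* were lower in all *Prdm16*SMKO libraries, with log2 fold changes of −0.59 and −0.34, and *Ptpn6*, a leukocyte phosphatase gene, was higher in all of them (0.70), patterns shown by 5.76% (lower) and 7.02% (higher) of all genes tested.

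A list of 51 other complement genes held 26 above the expression minimum, of which 21 had a log2 fold change above 0 and 5 below, with a median of 0.36 beside 0.02 for all genes tested. None had a limma p under 0.05 after Benjamini-Hochberg adjustment. An unadjusted p under 0.05 was found in 6, all higher in *Prdm16*SMKO mice, as in 4.88% of all genes tested. In 9 every *Prdm16*SMKO library lay above every control library (7.02% of all genes tested). Of these 9, *C1qa*, *C1qb*, *C1qc*, *C3ar1*, *C5ar1* and *Itgb2* are also genes of macrophages or other leukocytes. Without *Prdm16*SMKO replicate 2, 18 of 25 were above 0, with a median of 0.24.

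Among the genes that start the cascade, *C1qa*, *C1qb* and *C1qc*, which together encode C1q, had log2 fold changes of 0.80, 0.78 and 0.71 (limma, adjusted p = 0.386, 0.380 and 0.487). *C1qa* read 26.67, 29.08 and 16.05 TPM in the control libraries, against 31.52, 50.79 and 42.31 TPM in those of *Prdm16*SMKO mice, without overlap. Macrophages are the main source of C1q, and of the 10 macrophage markers, 3 of which are the C1q genes, 9 had a log2 fold change above 0, with sums of 82.3 to 129.24 TPM in control and 129.98 to 238 TPM in *Prdm16*SMKO libraries. The 7 markers other than C1q, summed after the values had been seen, overlapped between the groups, at 45.5 to 68.9 TPM in control and 61.6 to 122.5 TPM in *Prdm16*SMKO libraries. Of these 7, 6 had a log2 fold change above 0, and only *Cd68* was without overlap. *Lyz2* gave 48.12 of the 68.9 TPM in control replicate 1. None of the 10 was at 0 in any library, and their part in the C1q levels was not tested. *Colec11*, a soluble recognition lectin, was at 4.22 ± 1.02 TPM in control and 8.16 ± 2.39 TPM in *Prdm16*SMKO mice, and *Masp1*, a protease of the lectin pathway, at 0.390 ± 0.229 and 1.47 ± 0.200 TPM (SD, n = 3 each). Their log2 fold changes of 0.86 and 1.17 were not past the threshold (limma, adjusted p = 0.367 and 0.268), but both were with array weights (limma, adjusted p = 0.0323, range over the alternatives 0.0323 to 0.780, and 0.0298, range 0.0298 to 0.609). With array weights 494 of 15775 genes were called. *Masp2*, below the expression minimum, was at 0 to 0.10 TPM in control and 0.35 to 0.87 TPM in *Prdm16*SMKO libraries. *Masp2* and the C1q genes lie on chromosome 4, as does *Prdm16*, with *Masp2* 5.70 Mb and *C1qa* 17.4 Mb from it. The part of this position in their levels was not tested. *C1rl* was at 2.86 ± 0.591 and 2.88 ± 0.102 TPM (SD, n = 3 each), and the lectin gene *Mbl1* was listed at 0 throughout.

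Among genes of the alternative pathway other than *Cfb*, *Cfd*, which encodes factor D and is made mainly by adipocytes, read 601.01, 381.61 and 268.00 TPM in the control libraries, against 482.63, 492.55 and 1487.78 TPM in those of *Prdm16*SMKO mice. The highest value was in the library with the highest adipocyte sum, and without *Prdm16*SMKO replicate 3 the log2 fold change was 0.30 in place of 0.84. The part of adipocyte RNA in this difference was not tested. *Cfp*, which encodes properdin, had a log2 fold change of 0.08. The gene of C5, *Hc*, was at no more than 0.04 TPM, and the 5 listed genes of C6, C8 and C9 stayed below the expression minimum, so that *C7* was the 1 late component above it.

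Of 18 further regulators 10 were tested. *Cd59a*, the membrane inhibitor of the attack complex, was at 45.2 ± 6.28 and 41.1 ± 1.11 TPM, *Cr1l*, the mouse membrane regulator Crry, at 35.0 ± 3.21 and 37.2 ± 5.45 TPM, and *Clu*, which encodes clusterin, at 314 ± 69.2 and 310 ± 73.2 TPM in control and *Prdm16*SMKO mice (SD, n = 3 each). *C1qbp* had a log2 fold change of 0.27, and *Cfi*, which encodes factor I, did not exceed 0.27 TPM. *Cd59a* and *Cr1l*, membrane regulators like *Cd55*, overlapped between the groups, with log2 fold changes of −0.13 and 0.08, and whether these differed from that of *Cd55* was not tested.

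Receptors for complement fragments were at low levels. *C3ar1* was at 0.43 to 0.70 TPM in control and 0.92 to 1.38 TPM in *Prdm16*SMKO libraries, and *C5ar1* at 0.19 to 0.73 and 0.76 to 2.47 TPM. *Itgb2*, the β chain of complement receptor 3, had a log2 fold change of 0.96 (limma, adjusted p = 0.394). Of 9 listed receptor genes 5 were tested. In these 3 every *Prdm16*SMKO library lay above every control library, a pattern shown by 7.02% of all genes tested. They are also genes of macrophages and other leukocytes. The macrophage markers given with C1q had sums that overlapped between the groups once C1q was left out, though 6 of those 7 were higher. Sums of the 8 lymphocyte markers did not overlap, at 1.05 to 4.41 TPM in control and 4.52 to 6.38 TPM in *Prdm16*SMKO libraries. Those of the 6 neutrophil markers overlapped, at 0.36 to 0.83 TPM in control and 0.67 to 5.32 TPM in *Prdm16*SMKO libraries. The part of these cells in the receptor levels was not tested. *Cd93*, an endothelial and myeloid gene, was at 10.4 ± 1.15 and 12.7 ± 3.30 TPM (SD, n = 3 each), with overlapping groups.

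**Figure D5:**
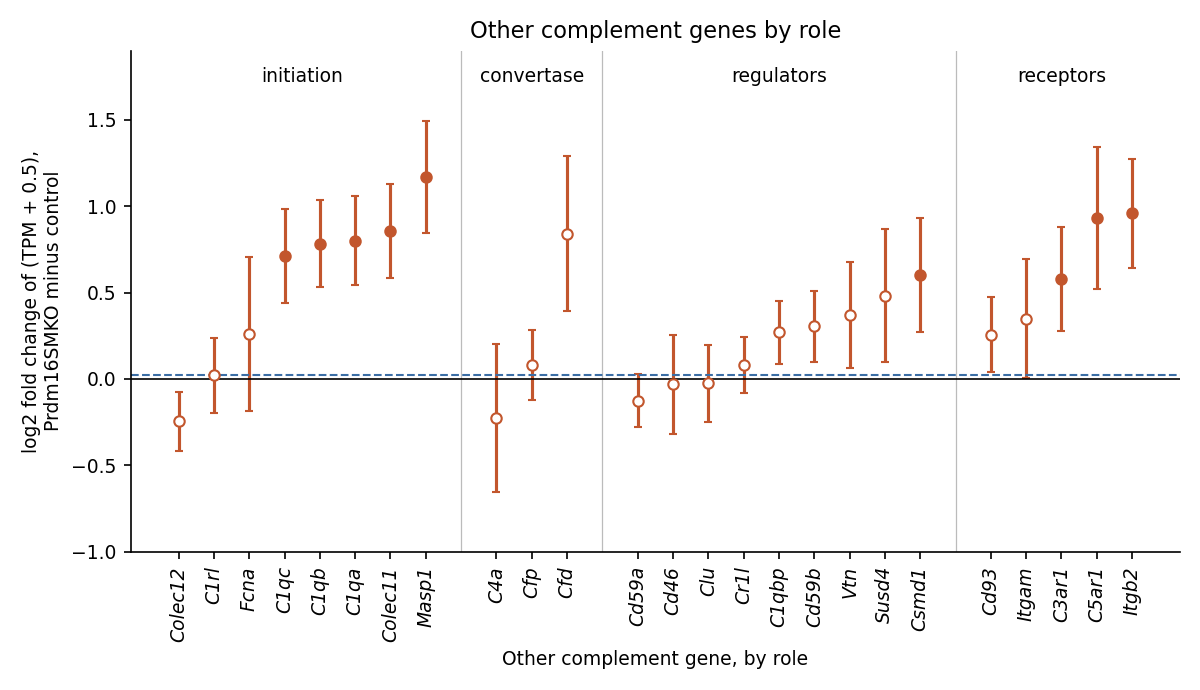
Log2 fold change of TPM + 0.5 with its standard error (bars, limma) for 25 of the 26 other complement genes above the expression minimum, grouped by role; filled points are genes whose groups do not overlap, the black line is 0 and the dashed blue line is the median of all genes tested. The filled points lie among initiation genes, receptors and 1 regulator, *Csmd1*, and all are above 0.

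Signals known to induce complement genes were also listed. Of 23 such genes 18 were tested, 12 with a log2 fold change above 0 and 6 below, with a median of 0.12, and none had a limma p under 0.05 after Benjamini-Hochberg adjustment, while 2 had an unadjusted p under 0.05, against 8.74% of all genes tested. *Irf1*, which encodes a transcription factor of the interferon response, was among them. *Irf1* read 13.04, 11.80 and 11.10 TPM in the control libraries, against 16.07, 17.46 and 15.92 TPM in those of *Prdm16*SMKO mice. All *Prdm16*SMKO values were above all control values, as in 7.02% of all genes tested, and the log2 fold change was 0.45 (limma, adjusted p = 0.421). *Irf7* had a log2 fold change of 0.66 with overlapping groups. *Stat3*, *Cebpb* and *Rela*, of the acute phase and NF-κB responses, had log2 fold changes of −0.02, 0.04 and 0.08, *Il6*, *Il1b* and *Tnf* stayed below the expression minimum, and *Ifng* was listed at 0 throughout. *Hp*, an acute phase gene also made by adipocytes, was at 367.52 TPM in *Prdm16*SMKO replicate 3 and between 25.91 and 70.54 TPM elsewhere.

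The genes whose pattern over the 6 libraries was most like the mean standardised profile of the 9 members, among 9661 others with a mean of at least 5 TPM, were *Mfng* (Pearson r = 0.985), *Igf1* (0.984), *Srpx* (0.983), *Nck1* (0.975) and *Pnp* (0.975). These r describe the same 6 libraries in 2 groups and carry no test. All 5 were highest in *Prdm16*SMKO replicate 2, second highest in *Prdm16*SMKO replicate 3 and within or below the control range in *Prdm16*SMKO replicate 1, with log2 fold changes from 0.28 to 0.66. The r of a member with the mean of the other 8 was highest for *C1s1* (0.955) and *C3* (0.949) and lowest for *Cd55* (0.464).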

How the data were processed

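Poly A selected RNA of 3 control and 3 *Prdm16*SMKO abdominal aortas was read as pairs of 151 bp, and the labels number the replicates without naming the animals. The authors deposited TPM values, rounded to 2 decimals, for 55426 genes. The submitters' processing notes name bcl2fastq, cutadapt 2.3, FastQC 0.11.8, STAR 2.7.8a, RSEM 1.3.3, MultiQC 1.7 and GRCm38; the annotation, strand setting and filters are not given in the sources used here. TPM keep no depth, so no counting error was computed, and a gene's TPM moves with 45S ribosomal RNA (15.6% to 31.4% of a library) and mitochondrial RNA (15.8% to 27.4%). Positions are from GENCODE M21. RSEM can divide shared reads among genes.

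Here, log2(TPM + 0.5) of 15775 genes, those averaging 0.5 TPM or more, went into limma 3.58.1 in R 4.3.3, with a variance trend, equal weights and two-sided Benjamini-Hochberg adjusted p-values over all genes; a call is an adjusted p under 0.05. Single values had exact permutation tests over 20 assignments. The added 0.5 TPM makes the fold changes understate the change of low genes, and p-values measure only the spread between these samples. Named were the 9 members, *Prdm16*, any gene of the complement, inducer and neighbour lists (called genes, paralogs and main components first, then the 2 largest changes per list among genes averaging 5 TPM or more), and the 5 genes most like the members. Some listed genes are not reported here. Members and lists were chosen with earlier results of these data known. Alternatives were pseudocounts of 0.1 and 1, no minimum, a minimum of 2 TPM, 3 scalings, 2 variance settings, array weights, a replicate block and each library left out. Figures used Python 3.11.15, numpy 2.4.6, pandas 2.3.3 and matplotlib 3.10.9.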

Additional observations from a re-analysis of the deposited data

How the results depend on the processing

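The *Cfb*, *Cd55*, *C3*, *C4b* and *C1s1* differences kept their sign under all 17 alternatives, and the median over the members ran from 0.09 to 0.45. No member was called except *Cfb* and *Cd55* with array weights (2 members, log2 fold changes 0.91 and 0.79) and *C3* without *Prdm16*SMKO replicate 1 (1 member; 0 to 1 over the fits that left out a library). Array weights, which called 494 of 15775 genes against 56 in the main fit, also called 2 other complement genes, *Masp1* and *Colec11*. The sign of *C7* (−0.40 to 0.30 with a library left out), *C2* (−0.11 to 0.45), *C1ra* (−0.076 to 0.32) and *Serping1* (−0.11 to 0.19) turned in at least 1 of these fits, that of *C7* also under quantile normalization (0.013) and that of *C2* with array weights (−0.17). Among neighbours, *Hspa1a* was called with a minimum mean of 2 TPM, size factors or robust variances (1 gene each) and both *Hspa1a* and *Hspa1b* with array weights (2), with 0 to 1 called when a library was left out. No inducer was called under any of them.

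Over all genes 56 were called. The number was 10 with no expression minimum, 153 (60 higher, 93 lower) with median-of-ratios size factors, 129 (46 higher, 83 lower) with quantile normalization, 123 (55 higher, 68 lower) after rescaling without mitochondrial and 45S genes, 33 without a variance trend, 112 with robust variances, 494 with array weights, 4 with the replicate block and 5 to 61 with a library left out. The median of all genes was 0.11 without control replicate 2. The cause of these moves was not tested. Replicate numbers did not pair the libraries: the deviations of same-numbered libraries had correlations of −0.13, −0.11 and 0.02, and 0 of the 6 libraries correlated best with its own number. The replicate block called 0 members. Depth is unknown, so low values such as those of *Masp2* carry no limit of detection.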
